A study of Mus musculus with 22 samples.

Results

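The I-BAR proteins and the Eps8 proteins are regulators of actin at the plasma membrane, and 7 genes of these families were followed across 22 RNA-seq libraries of mouse mpkCCD cells. They are the I-BAR genes Baiap2 (ENSMUSG00000025372), Baiap2l1 (ENSMUSG00000038859), Baiap2l2 (ENSMUSG00000018126) and Mtss1 (ENSMUSG00000022353), and the Eps8 genes Eps8 (ENSMUSG00000015766), Eps8l1 (ENSMUSG00000006154) and Eps8l2 (ENSMUSG00000025504). Members were taken by gene name, each had 1 line of its own, and together they are 7 of the 54514 gene entries of the deposited expression table. The set was chosen by the response to dDAVP, since Baiap2l2 is among the largest rises in that contrast. The values of all 7 genes in wild-type (WT) cells with and without dDAVP are therefore given as a description, with no test. The rule does not use the contrast between GFP fractions of the reporter clones, which is tested, although earlier results of these data were known when the set was chosen.

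I-BAR domains are crescent-shaped membrane-binding domains that favour outward or flat membrane, and the proteins that carry them also bring SH3 or WH2 domains that contact actin regulators. Baiap2 encodes IRSp53, which links the small GTPases Cdc42 and Rac1 to filopodia and lamellipodia. Baiap2l1 encodes IRTKS, a component of brush-border microvilli, and Baiap2l2 encodes Pinkbar, named for planar membrane sheets and for its presence in intestinal and kidney epithelium. Mtss1 encodes MIM, which bends membrane and binds actin monomers. Eps8 proteins cap and bundle actin filaments, bind IRSp53 and IRTKS, and with Abi1 and Sos1 activate Rac. In hair cells of the inner ear Baiap2l2 and Eps8 sit at stereocilia tips. In the collecting duct, vasopressin moves the water channel aquaporin-2 (Aqp2) to the apical membrane, a step that involves reorganisation of cortical actin.

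The cells derive from mouse cortical collecting duct and are an immortalised line. All groups share culture on permeable supports and a final simple medium with dexamethasone, selenite and transferrin. WT cells without dDAVP form the control group (3 libraries), and WT cells given dDAVP (desmopressin, which activates vasopressin V2 receptors) form the second group (3 libraries). The GFP reporter cells are the clones C1, C11, C43 and C50, each a single clone, all treated with dDAVP and split by GFP into negative and positive cells, 2 libraries for each of these fractions in every clone. The series concerns cell-to-cell variability of Aqp2 expression, which the GFP reporter reads out. The labels name more than 1 dose and duration of dDAVP without tying them to libraries, so dose and time are not analysed here, and no clone library without dDAVP is used here. Nothing in the labels says that replicates are separate cultures, so p-values measure only the spread between these libraries, which may be technical.

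Expression is in TPM, the authors' abundance per transcript length scaled to a fixed total per library, so levels can be compared between genes but sequencing depth is unknown. Between 12293 and 14341 genes reached 1 TPM in a library. GFP-positive libraries exceeded GFP-negative ones in the GFP transcript by a log2 difference of 6.73 (limma adjusted p 4.85e-12), and in Aqp2 by 3.11 (limma adjusted p 4.74e-06). Of 10 principal cell markers 9 were detected, and their summed level was 522 to 2225 TPM in GFP-negative and 2791 to 8203 TPM in GFP-positive libraries. These sums include Aqp2, which the reporter reads out, at means of 796 and 4156 TPM. Their gap therefore follows largely from the split by GFP. Of 9 tested, 6 were higher in the GFP-positive fraction (Aqp2, Avpr2, Gata3, Hsd11b2, Scnn1g and Tfcp2l1) and Aqp3 was lower. Among all genes tested, 12.1% were called higher and 23.2% lower. Of 7 intercalated cell markers Atp6v1b1 alone reached a mean of 1 TPM and was higher in the GFP-positive fraction (sums of 19.4 to 71.7 TPM in GFP-negative, 45.3 to 110.1 TPM in GFP-positive libraries), and Atp6v1g3 was at 0 in all 16. Of 6 proximal tubule markers Lrp2 alone reached a mean of 1 TPM and was also higher (sums of 0.94 to 13.2 TPM in GFP-negative, 3.92 to 16.2 TPM in GFP-positive libraries), while thick ascending limb and mesenchymal sums stayed at or below 0.98 and 1.69 TPM. These markers move with the fractions, and their part in the results was not tested. In bulk libraries, fewer cells that express a gene and less RNA per cell cannot be told apart. GFP-negative replicate 1 of clone C50 stood apart, with 8.40% of TPM in ribosomal protein genes against 3.89% to 6.18% in the other 21 libraries, and the changes of the 6 tested members between fractions are also given without it.

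Baiap2l2 went from a minor to a major I-BAR transcript with dDAVP. In the 3 WT control libraries it stood at 6.39, 11.7 and 9.11 TPM, and in the 3 dDAVP libraries at 85.8, 110.5 and 93.0 TPM. The groups lay far apart, with means of 9.07 ± 2.66 TPM (SD, n = 3) and 96.4 ± 12.7 TPM (SD, n = 3), a 10.6-fold ratio of means. On the log2(TPM + 1) scale, on which all differences below are given and which understates changes of low genes, the difference was 3.30. Among 782 genes with a mean of at least 5 TPM whose dDAVP libraries all lay above the controls, Baiap2l2 was 3rd by size, between Cited1 (4.31) and Spink8 (3.03), and among all 13494 genes tested in WT cells it was 8th.

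The reporter clones, all under dDAVP, divided Baiap2l2 by GFP. The GFP-negative libraries held 44.3 and 52.3 TPM in C1, 64.3 and 78.7 TPM in C11, 50.4 and 61.3 TPM in C43, and 31.6 and 42.9 TPM in C50. In the GFP-positive libraries the values were 114 and 103 TPM in C1, 101 and 101 TPM in C11, 109 and 113 TPM in C43, and 157 and 113 TPM in C50. All 8 GFP-positive libraries lay above all 8 GFP-negative ones, a separation seen in 1.26% of the 13113 genes tested. The means were 114 ± 18.3 TPM (SD, n = 8) and 53.2 ± 14.6 TPM (SD, n = 8), and the change was 1.12 ± 0.152 (SE, limma adjusted p 5.75e-05). By size it was the 89th of the 13113 log2 changes counted from the top. Without GFP-negative replicate 1 of C50 it was 1.01 (limma adjusted p 2.22e-05).

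**Figure D1:**
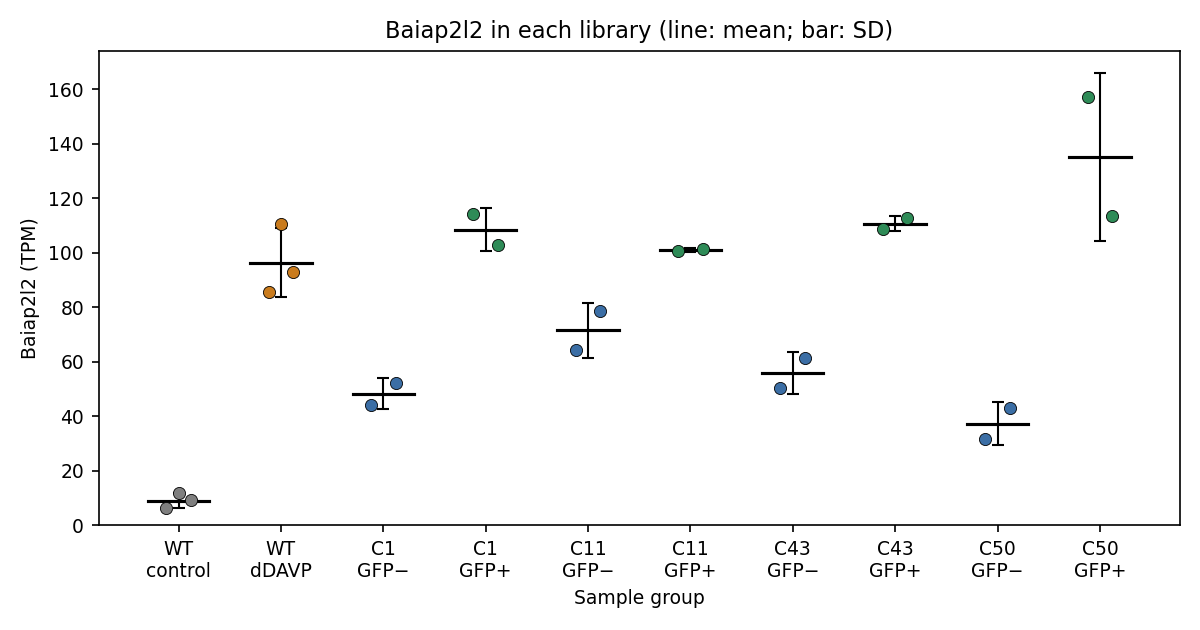
Baiap2l2 in TPM (vertical axis, linear from 0) in each library of the 10 groups (horizontal axis); points are libraries, lines are group means and bars are SD. The 3 control libraries sit at 6.39 to 11.7 TPM, the GFP-negative libraries at 31.6 to 78.7 TPM and the GFP-positive libraries at 101 to 157 TPM.

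The GFP-negative level of Baiap2l2 lay between the levels of untreated and treated WT cells. The 8 GFP-negative libraries, with a lowest value of 31.6, a median of 51.3 and a highest of 78.7 TPM, all exceeded the highest control library (11.7 TPM) and all fell short of the lowest WT dDAVP library (85.8 TPM). WT and clone cells differ in clone and in separation by GFP as well, and this was not tested. From high to low, the group means ran C50 GFP-positive (135), C43 GFP-positive (111), C1 GFP-positive (108), C11 GFP-positive (101), WT dDAVP (96.4), C11 GFP-negative (71.5), C43 GFP-negative (55.8), C1 GFP-negative (48.3), C50 GFP-negative (37.3) and WT control (9.07 TPM). Libraries overlapped between C43 and C1 in both fractions, and between C11 GFP-positive and WT dDAVP, while the other neighbours in this order did not overlap. Aqp2 itself ordered the GFP-negative groups differently, at 69.5 TPM in C1, 249 TPM in C11, 1243 TPM in C50 and 1624 TPM in C43. Clone C50 thus had the lowest Baiap2l2 of the 4 GFP-negative groups beside the second-highest Aqp2. That mean includes replicate 1, which stood apart, and replicate 2 (42.9 TPM) lay near the lowest C1 library (44.3 TPM). Baiap2l2 did not pass the test for differences between clones whatever the fraction (limma F-test, adjusted p 0.704).

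Differences of the other I-BAR genes were smaller, and the make-up of the family shifted. In control WT cells Baiap2 supplied 57.6% to 61.0% of the summed TPM of the 4 I-BAR genes and Baiap2l2 5.12% to 9.57%. With dDAVP the share of Baiap2l2 was 41.0% to 43.1%, and the I-BAR sum was 209 to 257 TPM against 111 to 125 TPM in the controls. In the clones the Baiap2l2 share was 24.4% to 35.6% in GFP-negative and 37.6% to 51.1% in GFP-positive libraries, with no overlap, and the lowest GFP-negative share was 25.0% without GFP-negative replicate 1 of C50. Baiap2l2 per Baiap2 transcript was 0.0890 to 0.160 in control, 1.02 to 1.14 in dDAVP, 0.456 to 0.846 in GFP-negative and 0.814 to 1.66 in GFP-positive libraries. Without GFP-negative replicate 1 of C50 the lowest GFP-negative ratio was 0.515. The last pair of ranges overlapped across clones but in no single clone. These ratios are the same under any single scaling factor per library.

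**Figure D2:**
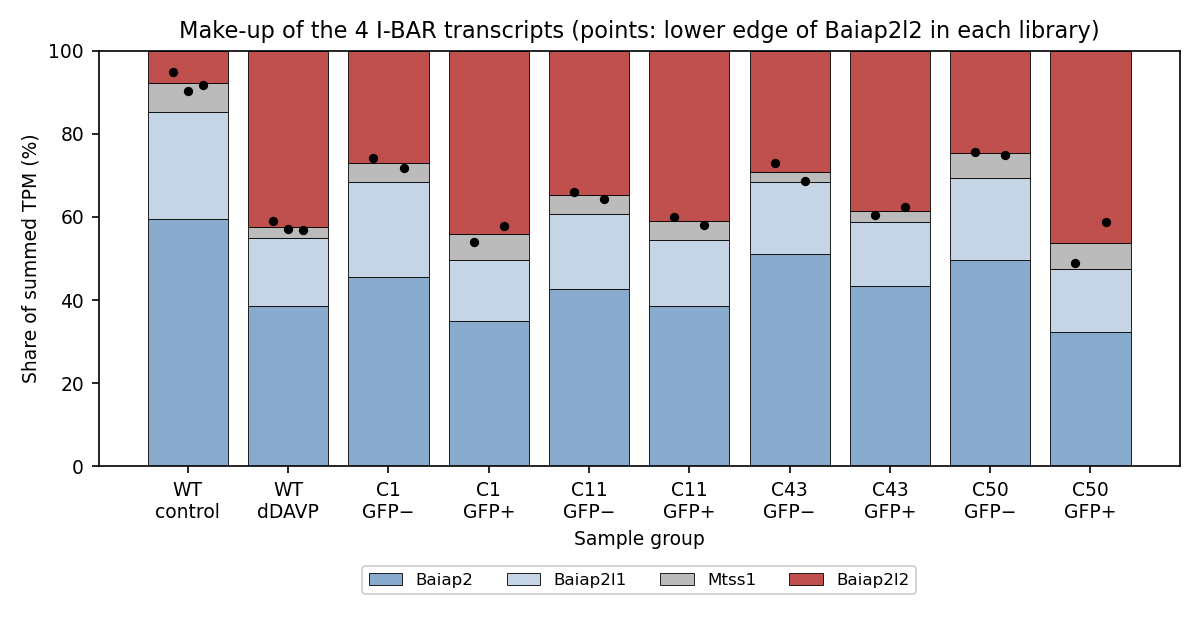
Share of each I-BAR gene in the summed TPM of Baiap2, Baiap2l1, Mtss1 and Baiap2l2 (vertical axis, percent) in the 10 groups (horizontal axis); bars stack the group means and points mark the lower edge of the Baiap2l2 share in each library. The Baiap2l2 share is 5.12% to 9.57% in control libraries and 37.6% to 51.1% in GFP-positive libraries.

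Baiap2, the most abundant I-BAR gene in control cells, showed the second pattern without overlap in WT cells. It measured 71.8, 73.1 and 67.5 TPM in the control libraries and 83.7, 97.4 and 82.2 TPM with dDAVP, a difference of 0.30 between means of 70.8 ± 2.96 and 87.7 ± 8.36 TPM (SD, n = 3 each). Baiap2l2 and Baiap2 were the 2 of 7 genes whose dDAVP libraries all lay above the controls, 0 lay below, and 5 overlapped. Among the 13494 genes tested in WT cells, 35.8% did not overlap (7.12% higher and 28.7% lower), and nothing is read from the members' count because this contrast chose them. Median-ratio scaling, which sets the typical gene to no change, moved the median difference of all genes from -0.16 to 0.00. Under it Baiap2 differed by 0.47, Baiap2l2 by 3.46, and the sign of Eps8l2 turned from -0.08 to 0.09.

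In the clones, Baiap2 was higher in the GFP-positive fraction by a small step. The GFP-negative libraries held 79.0 and 83.3 TPM in C1, 81.7 and 93.0 TPM in C11, 97.8 and 97.4 TPM in C43, and 69.4 and 78.6 TPM in C50, and the GFP-positive ones 83.7 and 89.2, 96.7 and 94.0, 112 and 138, and 94.8 and 93.5 TPM. Within each clone the fractions did not overlap, although across clones they did. The means were 100.3 ± 17.4 and 85.0 ± 10.1 TPM (SD, n = 8 each), a change of 0.23 ± 0.0649 (SE, limma adjusted p 0.0130). Without GFP-negative replicate 1 of C50 it was 0.20 (limma adjusted p 0.0112). The call was lost with clone means as the units (limma adjusted p 0.135) and without clone C43 (limma adjusted p 0.0832).

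Baiap2 was also the 1 gene of the 6 tested that differed between clones whatever the fraction (limma F-test, adjusted p 0.0117), against 28.0% of all genes. C43 was highest, at 97.6 ± 0.276 TPM in its GFP-negative and 125 ± 18.7 TPM in its GFP-positive fraction (SD, n = 2 each), while the other clones had means of 74.0 to 95.3 TPM. Leaving out 1 of 3 libraries added others. Mtss1 passed without GFP-positive replicate 2 of C11 (limma adjusted p 0.0478), without GFP-positive replicate 1 of C43 (limma adjusted p 0.0377), and, together with Eps8l2 (limma adjusted p 0.00345), without GFP-negative replicate 1 of C50 (limma adjusted p 0.0166). All genes called in these fits were 23.4%, 24.4% and 44.8%.

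Baiap2l1 and Mtss1 did not pass the test between the fractions. Baiap2l1 measured 36.7, 29.0 and 27.4 TPM in control and 34.6, 42.3 and 35.1 TPM in dDAVP libraries, which overlap. Over the 8 GFP-negative libraries its lowest, median and highest values were 22.6, 36.5 and 41.7 TPM, and over the 8 GFP-positive ones 35.3, 40.8 and 45.2 TPM. The change was 0.22 (95% confidence interval -0.03 to 0.46, limma adjusted p 0.158), or 0.12 (limma adjusted p 0.205) without GFP-negative replicate 1 of C50, and in C1 both GFP-positive libraries (36.8 and 35.3 TPM) lay below both GFP-negative ones (40.1 and 41.7 TPM).

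Mtss1 had the lowest mean of the 4 I-BAR members in each group, at 9.89, 8.56 and 6.71 TPM in control and 4.95, 7.35 and 5.77 TPM in dDAVP libraries. These overlap, with a difference of -0.42 as deposited, -0.27 after median-ratio scaling and -0.21 after quantile normalization. Its GFP-negative libraries ranged from 4.22 through a median of 8.33 to 12.3 TPM, and its GFP-positive libraries from 3.58 through 13.6 to 23.4 TPM. The change of 0.58 had a 95% confidence interval of 0.11 to 1.05 but did not pass after adjustment over all genes (limma adjusted p 0.0544), nor did the 0.46 found without GFP-negative replicate 1 of C50 (limma adjusted p 0.0815). It did pass without GFP-positive replicate 2 of C11 (0.69, limma adjusted p 0.0237) or of C43 (0.73, limma adjusted p 0.0102). Replicates of Mtss1 were far apart, at 11.2 and 3.58 TPM in GFP-positive cells of C43 and 15.0 and 7.76 TPM in those of C11.

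The Eps8 family in these cells was mostly Eps8l2. Eps8 itself was listed at 0 in 8 of the 22 libraries and reached 1 TPM in 1 of them (1.41 TPM, WT dDAVP replicate 3), with 4 of 8 GFP-negative and 3 of 8 GFP-positive libraries at 0, and it did not pass the filter on mean TPM. Eps8l2 supplied 82.6% to 91.5% of the summed TPM of the 3 genes and Eps8l1 8.33% to 17.2%. Eps8l2 was also the most abundant of all 7 members in each library. Eps8l1 and Eps8l2 encode the related proteins that share the actin-binding and SH3 modules of Eps8.

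Eps8l1 was the second member to separate the fractions completely. WT levels overlapped, at 33.6, 38.9 and 35.4 TPM in control and 41.4, 46.9 and 33.5 TPM in dDAVP libraries. GFP-negative libraries held 34.1 and 25.6 TPM in C1, 36.8 and 39.4 TPM in C11, 30.9 and 33.8 TPM in C43, and 14.0 and 25.1 TPM in C50, against 42.0 and 43.6, 48.0 and 49.0, 50.2 and 47.9, and 49.6 and 44.5 TPM in the GFP-positive libraries. All 8 GFP-positive libraries exceeded the highest GFP-negative one (39.4 TPM). The means were 46.9 ± 3.04 and 30.0 ± 8.15 TPM (SD, n = 8 each), and the change was 0.68 ± 0.136 (SE, limma adjusted p 0.00124). Without GFP-negative replicate 1 of C50, the lowest value, it was 0.55 (limma adjusted p 5.25e-05).

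Promoter sequences from RefSeq, of 300 bases (250 before and 50 after the start, build GRCm38.p6), were matched for 4 of the 7 genes in the table used here, Baiap2, Baiap2l1, Eps8l1 and Eps8l2, with 3 starts for Eps8l1. They were searched on both strands for the cAMP response element TGACGTCA, the site bound by CREB factors downstream of cAMP, and for its half-site TGACG, which every full element also holds. The full element was in none of the 6 promoters and in 1.79% of 32851 mouse promoters. The half-site was in 1 of the 6, the first Eps8l1 start, and in 20.8% of all. It occurs there at -129 and -24 relative to the start (first base of the motif). That promoter, chr7:4460447-4460746 on the plus strand, is printed with the half-sites in capitals beside that of Baiap2, chr11:119942842-119943141 on the plus strand, which has none, since both genes were higher in GFP-positive cells.
Eps8l1: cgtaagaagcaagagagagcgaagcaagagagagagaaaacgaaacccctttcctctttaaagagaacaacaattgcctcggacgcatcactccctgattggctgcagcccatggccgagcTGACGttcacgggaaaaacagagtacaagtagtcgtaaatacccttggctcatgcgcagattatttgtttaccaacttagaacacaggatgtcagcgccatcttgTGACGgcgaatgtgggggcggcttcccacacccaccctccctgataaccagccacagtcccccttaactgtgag
Baiap2: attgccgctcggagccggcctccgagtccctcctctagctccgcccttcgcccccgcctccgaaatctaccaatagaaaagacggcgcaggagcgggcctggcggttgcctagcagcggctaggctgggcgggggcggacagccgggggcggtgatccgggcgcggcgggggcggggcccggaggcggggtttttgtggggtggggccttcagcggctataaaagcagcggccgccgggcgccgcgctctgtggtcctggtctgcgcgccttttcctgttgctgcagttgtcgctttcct
A match is a description of letters and not of binding.

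Eps8l2 did not pass the test between the fractions. It measured 313, 295 and 273 TPM in control and 249, 311 and 275 TPM in dDAVP libraries. The lowest, median and highest values were 144, 241 and 333 TPM in GFP-negative and 240.4, 310 and 359 TPM in GFP-positive libraries, which overlap widely. The change was 0.34 ± 0.128 (SE, limma adjusted p 0.0536), and the lowest library was again GFP-negative replicate 1 of C50. Without it the change was smaller but passed, at 0.21 (limma adjusted p 0.0140).

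**Figure D3:**
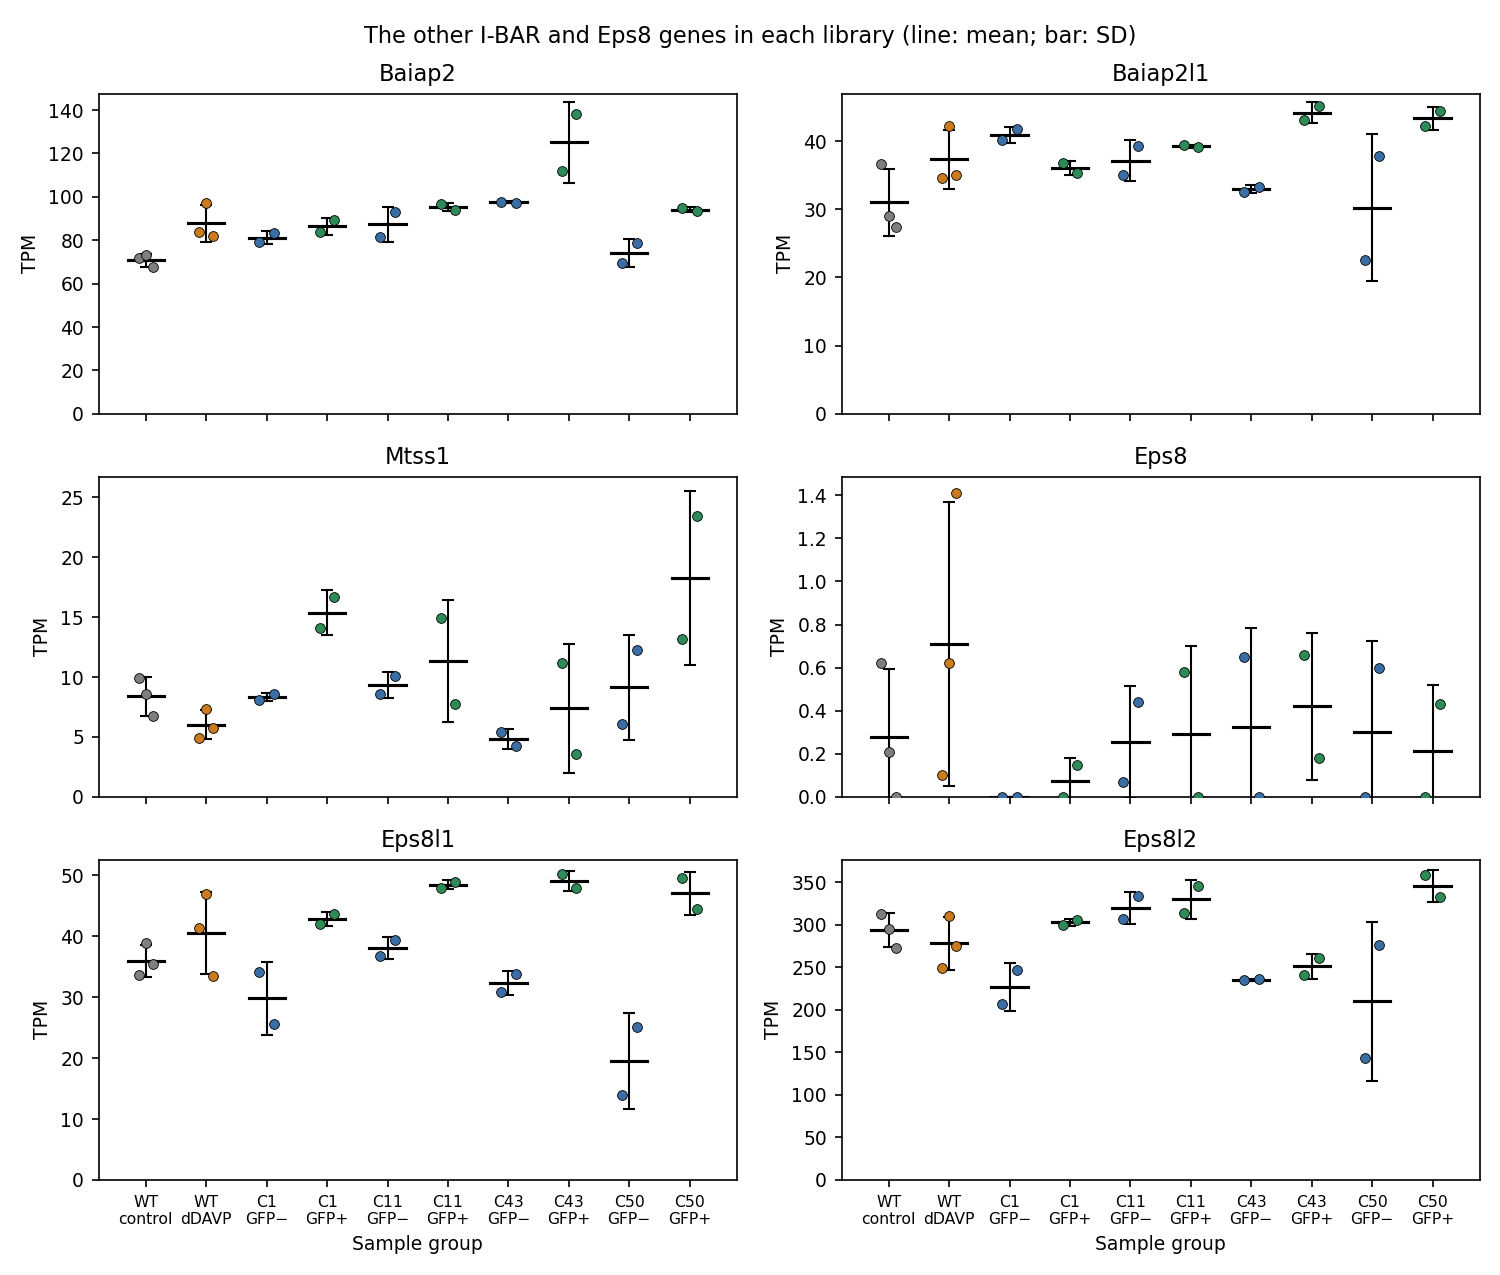
TPM (vertical axes, linear from 0, a different range in each panel) of Baiap2, Baiap2l1, Mtss1, Eps8, Eps8l1 and Eps8l2 in each library of the 10 groups (horizontal axis); points are libraries, lines are means and bars are SD. In the Eps8l1 panel the 8 GFP-positive libraries lie at 42.0 to 50.2 TPM, above the GFP-negative libraries at 14.0 to 39.4 TPM, and in the Eps8 panel all but 1 library lie below 1 TPM.

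Across the family, 3 of the 6 genes tested were higher in GFP-positive cells (Baiap2, Baiap2l2 and Eps8l1) and 0 were lower. Of all 13113 genes 35.3% were called, 12.1% higher and 23.2% lower, and 3 of 6 is read against that share. Higher genes made up 34.2% of all calls as deposited and 51.0% after median-ratio scaling. All 6 tested members passed, each higher, after median-ratio scaling, where 35.7% of all genes were called (18.2% higher), and after quantile normalization, where 38.7% were called (19.5% higher). The same 3 genes kept the GFP-positive libraries above the GFP-negative ones inside every clone, which 6.72% of all genes did. The number of genes above 0 TPM split the libraries into a set of 10 (17177 to 20250 genes) and a set of 12 (23135 to 31292 genes), with 8 clone libraries each. The first set held both fractions of C1, C43 and C50 and called 1.96% of all genes, and the second held both fractions of C11, C43 and C50 and called 29.9%, so the sets differ in clones as well. Baiap2l2 changed by 1.43 (limma adjusted p 0.0567) in the first set and by 0.94 (limma adjusted p 0.0126) in the second, Eps8l1 by 0.87 (limma adjusted p 0.168) and 0.58 (limma adjusted p 0.0130), and Baiap2 by 0.30 (limma adjusted p 0.314) and 0.19 (limma adjusted p 0.112).

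Estimates of the GFP difference were made in each clone. In GFP-positive cells Baiap2l2 was 3.63-fold higher in C50 (log2 1.83, limma adjusted p 5.95e-05), 2.25-fold in C1 (log2 1.15, limma adjusted p 0.00327) and 1.98-fold in C43 (log2 0.98, limma adjusted p 0.00494), while in C11 the ratio was 1.41 (log2 0.50, limma adjusted p 0.149) and passed after median-ratio scaling (log2 0.65, limma adjusted p 0.0302). Eps8l1 followed the same order at its ends, 0.34 in C11 (limma adjusted p 0.434) and 1.28 in C50 (limma adjusted p 0.00157). Of 24 member-by-clone contrasts 6 passed, all higher: Baiap2l2 in C1, C43 and C50, and Eps8l1, Baiap2l1 (0.55, limma adjusted p 0.0469) and Eps8l2 (0.79, limma adjusted p 0.0229) in C50. Of all genes, the higher calls made up 12.8% in C50, 4.29% in C43, 2.31% in C1 and 2.23% in C11. Without GFP-negative replicate 1 of C50, Baiap2l1 (0.19, limma adjusted p 0.228) and Eps8l2 (0.32, limma adjusted p 0.0648) no longer passed in C50, while Baiap2l2 (1.62) and Eps8l1 (0.88, limma adjusted p 0.00222) did, and 9 contrasts passed in all, beside 21.7% of the contrasts of all genes. The Baiap2l1 call in C50 was lost in 18 of 24 alternatives, among them 15 of the 16 that left out 1 library. Eps8l2 in C50 was also lost without either GFP-positive replicate (limma adjusted p 0.120 and 0.0804), and Baiap2l2 in C43 without its GFP-negative replicate 1 (limma adjusted p 0.0607).

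Whether the clones differ in the GFP change was tested as an interaction. By limma's F-test 0 of the 6 genes passed, against 0.869% of all genes, with 2 under an unadjusted p of 0.05, Baiap2l2 (p 0.00316, limma adjusted p 0.139) and Eps8l1 (p 0.0497, limma adjusted p 0.386). The count of 0 held in 23 of 24 alternatives, and the exception left out 1 library. Without GFP-negative replicate 2 of C50, 4 members passed, Baiap2l1 (limma adjusted p 0.00166), Baiap2l2 (0.00605), Eps8l1 (0.00295) and Eps8l2 (0.00119), and 13 of the 24 contrasts within clones. In that fit 38.6% of all genes passed the interaction test and 29.0% of all contrasts within clones, against 0.869% and 14.5% with all libraries. That leaves replicate 1, the library that stood apart, as the only GFP-negative library of C50, and without replicate 1 instead 0 members passed by limma, with 3 under an unadjusted p of 0.05, beside 2.49% of all genes.

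**Figure D4:**
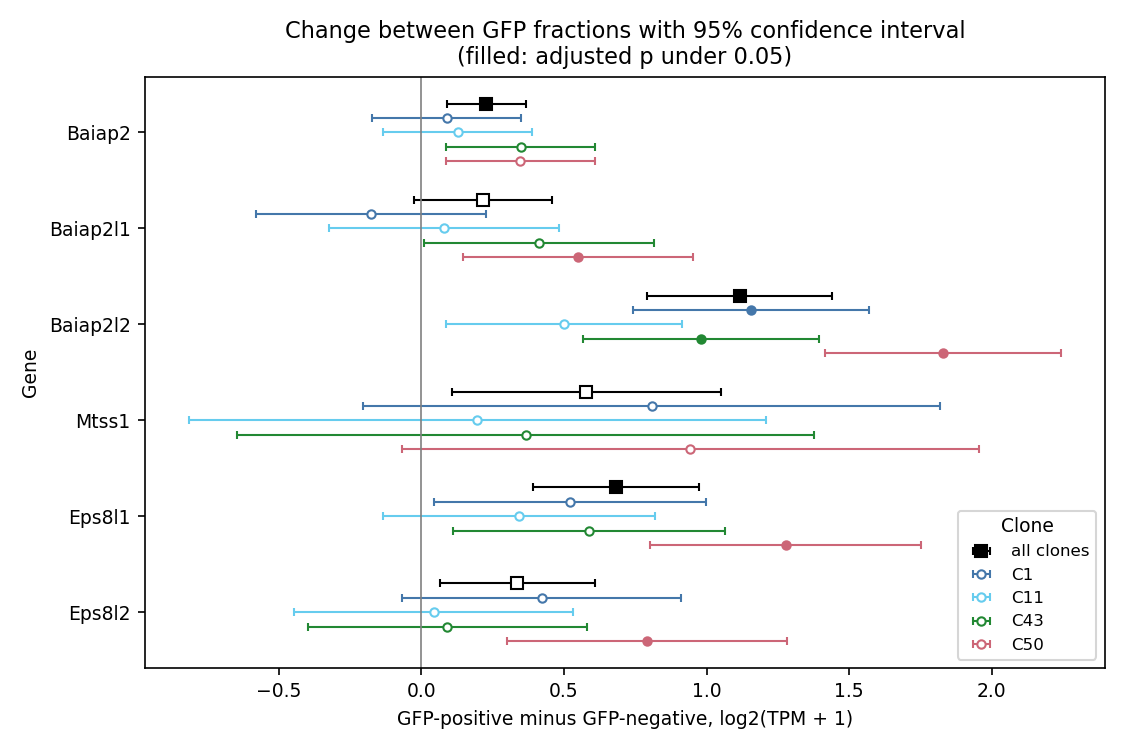
GFP-positive minus GFP-negative difference in log2(TPM + 1) (horizontal axis) for the 6 tested genes (vertical axis), over all clones (squares) and in each clone (circles); bars are 95% confidence intervals from limma and filled symbols have an adjusted p under 0.05. The Baiap2l2 change is 0.50 in C11 and 1.83 in C50, and Baiap2l1 in C1 is the 1 estimate below 0.

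Of the families' remaining genes, Mtss2, the second Mtss I-BAR gene, stood at 13.0 ± 4.45 TPM in GFP-negative and 14.9 ± 3.70 TPM in GFP-positive libraries (SD, n = 8 each) and did not pass (0.24, limma adjusted p 0.338), and Eps8l3 was listed at 0 in 20 of 22 libraries. Of 16 direct partners of IRSp53 and Eps8 tested, 2 were higher and 4 lower in GFP-positive cells, close to the shares of all genes (12.1% and 23.2%), with a median of -0.13 against -0.06 for all genes. Wasf1, a WAVE nucleation-promoting factor, fell by 1.17 (limma adjusted p 0.000679), from 4.76 ± 3.05 to 2.32 ± 3.52 TPM (SD, n = 8 each). The filament elongation factors Evl and Vasp fell by 0.71 and 0.56 (limma adjusted p 0.000151 and 0.000205). Of the WAVE complex and Arp2/3 genes, 2 of 14 rose and 4 fell, with a median of -0.07. Cyfip2, a WAVE complex subunit, rose by 1.47 (limma adjusted p 0.000234), from 2.96 ± 2.41 to 12.6 ± 13.4 TPM (SD, n = 8 each), while the Arp2/3 subunits Arpc5l and Arpc4 changed by -0.49 and 0.23 (limma adjusted p 0.000129 and 0.000705).

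Of the microvillus core, 7 of the 9 genes tested were called: 5 rose and 2 fell in GFP-positive cells, with a median of 0.39. Among all genes, 12.1% were called higher and 23.2% lower. The 3 largest called changes are named here, and the other calls were rises. Moesin (Msn), which links actin to membrane, fell by 1.75 (limma adjusted p 4.81e-07), from 151 ± 39.0 to 44.6 ± 15.3 TPM (SD, n = 8 each), and the actin bundler espin (Espn) fell by 0.95 (limma adjusted p 2.98e-05). The motor Myo6 rose by 0.71 (limma adjusted p 0.00669), from 70.0 ± 22.8 to 110 ± 21.7 TPM (SD, n = 8 each). Of the intermicrovillar adhesion genes Calml4 alone was tested and did not pass. Of the stereocilia tip genes 1 of 4 fell, Gpsm2, by 0.88 (limma adjusted p 0.000280). Of 15 F-BAR genes, whose domains bend membrane, 4 rose and 2 fell, with Srgap3 at 0.53, Fes at 0.41 and Fnbp1l at -0.40 (limma adjusted p 0.0249, 0.0114 and 0.00601). These 3 calls did not hold with clone means as the units (limma adjusted p 0.174, 0.112 and 0.0566), nor did those of Myo6 (0.0586) and Arpc4 (0.0745). Srgap3 also fell short without either GFP-positive library of C50 (limma adjusted p 0.0576 and 0.0560), and its change was 0.23 without clone C50 (limma adjusted p 0.0994). Fes lost its call without clone C1 or C43 (limma adjusted p 0.0942 and 0.0760), and Fnbp1l without clone C11 or C43 (limma adjusted p 0.0552 and 0.0674). In all, 26 of the 60 tested list genes passed, against 35.3% of all genes. The number was 32 without GFP-negative replicate 1 of C50 (6043 of all genes, against 4626 with it). It was 14 without clone C1, where 3794 of all genes (28.7%) were called.

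In WT cells given dDAVP, 8.88% of all genes were called (2.37% higher and 6.51% lower). Higher genes were 26.7% of these calls as deposited, 59.6% after median-ratio scaling and 54.1% after quantile normalization. Without dDAVP replicate 2 the number of calls went from 1198 to 2038, of which 18.3% were higher, and without any other single library it was 314 to 460, of which 45.0% to 48.7% were higher. Of the 60 list genes tested, 5 passed: Slc9a3r1 (NHERF1, a scaffold of the apical membrane) rose by 0.35 (limma adjusted p 0.0260), and Msn fell by 0.41 (0.0438), Enah by 0.67 (0.0427), Fcho1 by 0.70 (0.0427) and Pacsin3 by 0.37 (0.0261). After median-ratio scaling Msn differed by -0.24 (limma adjusted p 0.139), Enah by -0.51 (0.0690), Fcho1 by -0.53 (0.0517) and Pacsin3 by -0.20 (0.276), none of which passed, while Slc9a3r1 did (0.52, 0.0146). After quantile normalization none of the 5 passed, Slc9a3r1 included (0.31, limma adjusted p 0.0524). Slc9a3r1 also lost its call without a filter (limma adjusted p 0.0710) and without trend (limma adjusted p 0.0651). The number rested on single libraries: it was 0 without any of the 3 control libraries or without dDAVP replicate 1 or 3, with 14 to 21 under an unadjusted p of 0.05, and 7 without dDAVP replicate 2.

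**Figure D5:**
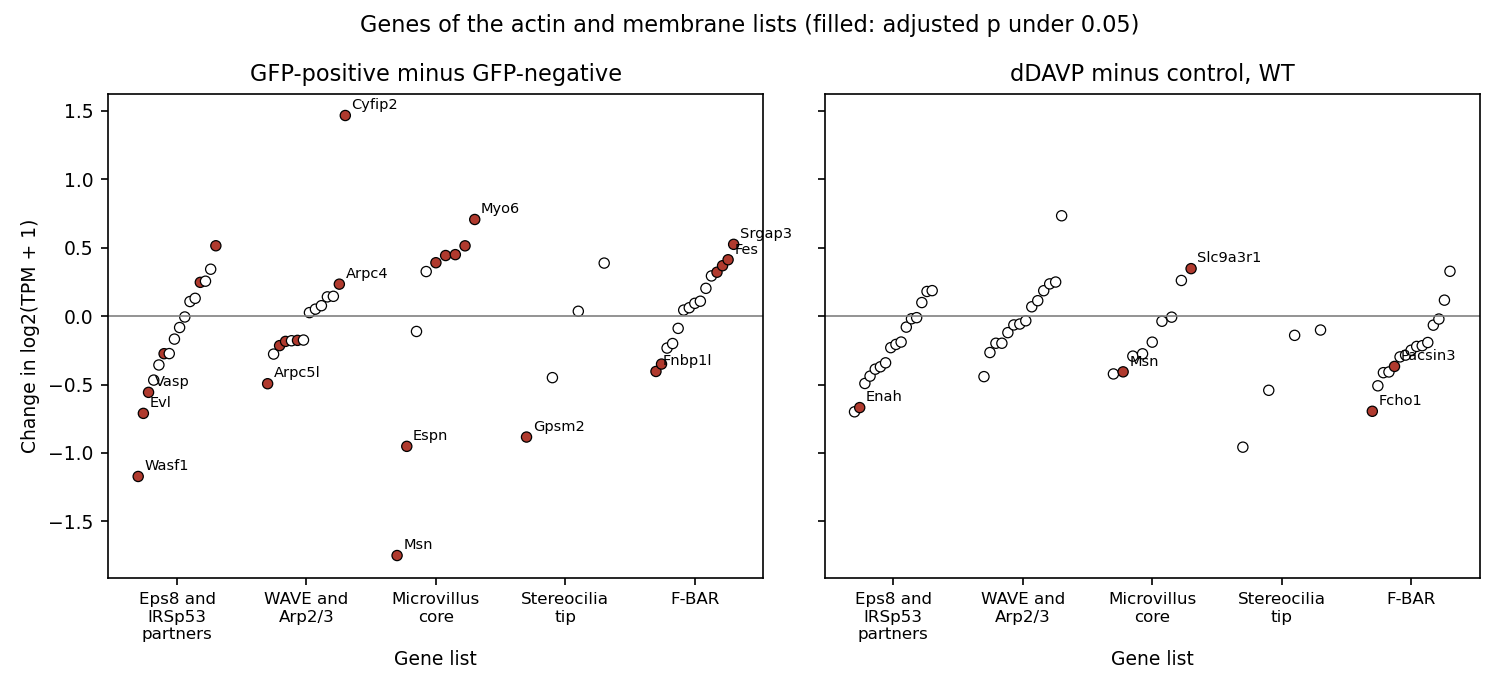
Change in log2(TPM + 1) (vertical axis) of the tested genes of 5 actin and membrane lists (horizontal axis), between GFP fractions of the clones (left) and with dDAVP in WT cells (right); each point is a gene, points are sorted by change within a list, and filled points have an adjusted p under 0.05. In the left panel Cyfip2 lies at 1.47 and Msn at -1.75, and in the right panel 5 points are filled.

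Which genes followed each member most closely was read from Pearson's r of the log2 group means over the 10 groups, among 9630 genes with a mean of at least 5 TPM. Genes with provisional symbols were left out. These are descriptions, since the groups share clones and the dDAVP treatment. They also include WT control, where Baiap2l2 was lowest (9.07 TPM) and which belongs to the contrast that chose the set. For Baiap2l2 the closest were Nipal1 (r 0.957), Spink8 (0.930), Avpi1 (0.929), B3gnt7 (0.925) and C3 (0.918), all above Aqp2 itself (0.760). Each of these genes but Aqp2 also had its clearly lowest mean in WT control. Aqp2 was about as low in GFP-negative C1 cells (69.5 TPM) as in control (69.1 TPM). How far r rests on that group was not tested. Nipal1 stood at 3.95 TPM in control and 19.8 TPM in dDAVP libraries, but at 15.7 TPM in GFP-negative and 15.4 TPM in GFP-positive C1 cells, where Baiap2l2 differed 2.25-fold. Spink8 stood at 11.8 TPM in control, 102 TPM in dDAVP and 182 TPM in GFP-positive C1 cells. The closest to Baiap2 were Lgals9 (0.950) and Gng12 (0.948), to Baiap2l1 Nln (0.926) and Snx2 (0.916), and to Mtss1 Rnf34 (0.892) and Hspa5 (0.864). Eps8l1 was closest to Ints3 (0.980) and Pla2g4a (0.979), and Eps8l2 to Rbm47 (0.968) and Fut8 (0.967). Within the family Eps8l1 and Eps8l2 gave the highest value (0.793), and Baiap2l2 with Eps8l1 gave 0.524.

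The flanking genes of Baiap2l2 were measured as well. Slc16a8 and Pla2g6, the neighbouring protein-coding genes in RefSeq order, were chosen by position. Slc16a8 had means of 0.300 TPM in control and 0.127 TPM in dDAVP libraries and was too low to test. Pla2g6, a phospholipase, stood at 23.9 ± 2.06 TPM in control and 24.3 ± 3.99 TPM in dDAVP libraries (SD, n = 3 each), a change of 0.02 (95% confidence interval -0.30 to 0.33, limma adjusted p 0.947), and at 21.3 ± 6.08 TPM in GFP-negative and 26.1 ± 3.09 TPM in GFP-positive libraries (SD, n = 8 each), a change of 0.32 (limma adjusted p 0.0815) that passed after median-ratio scaling (0.40, limma adjusted p 0.00603).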

How the data were processed

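RNA was extracted on columns and converted to libraries with SMART-Seq HT and Nextera XT and sequenced as paired ends, per the labels' protocols. STAR and RSEM are named in the submitters' processing notes, and the genome build and annotation are not given in the sources used here. The authors deposited TPM per gene and library, with group means and ratios of those means, and neither those means nor the deposited ratios enter the results. A further 1 value column, the highest TPM of each gene, was not used. TPM sums to a fixed total per library, keeps no depth, and a gene falls on this scale when others rise.

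Lines that shared a symbol were summed (980 lines, 79 symbols), which left 54514 entries. The 7 members each had 1 line. Libraries were grouped by their titles, and no pair within a group held identical values (0 pairs). Genes with a mean of at least 1 TPM over the libraries of a fit were tested on log2(TPM + 1) with limma 3.58.1 (trended moderation, R 4.3.3, statmod 1.5.0), two-sided, with Benjamini-Hochberg adjustment over all genes and a threshold of 0.05. For the GFP contrast the model held all 16 clone libraries and a term for clone. Contrasts within clones and the fraction-by-clone F-test came from a model of the 8 clone-by-fraction means, which pools their spread. Where leaving out a replicate left 1 library in an arm, that library is assumed to vary like the other groups. WT cells were fitted 3 against 3. The fits were also run on simulated data with known changes. Those data held no clone differences and no library that stood apart, so they do not bear on either.

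The members and lists were chosen with earlier results of these data known. List genes named in the text were those called with an absolute log2 change of at least 1, or the 3 largest called changes of a list. Marker lists and flanking genes served as context. Alternatives were no filter or a mean of at least 5 TPM, a pseudocount of 0.1, median-ratio or quantile scaling, robust or untrended moderation, clone means, a replicate block, and leaving out each replicate or clone. A split by the number of genes above 0 TPM was added after seeing the data. Replicate numbers were checked for pairing: the correlations of same-numbered deviations were -0.208, -0.0254 and -0.109 (WT) and ran from 0.0151 to 0.203 by clone, so the numbers were not treated as pairs.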

Additional observations from a re-analysis of the deposited data

Results flagged for a closer look

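In 3 of 12 sets of 8 libraries, each set holding 1 gene in 1 fraction over the 4 clones, a single library lay far from the rest by Dixon's ratio of its gap to the range, taken on log2(TPM + 1). Chance gives about 1 in 20 such sets, and each set mixes 4 clones. Baiap2l1 in GFP-negative replicate 1 of C50 was low, at 22.6 TPM against 32.5 to 41.7 TPM in the other 7, with a ratio of 0.589. Eps8l1 in the same library was low, at 14.0 TPM against 25.1 to 39.4 TPM, with a ratio of 0.561. Baiap2l2 in GFP-positive replicate 1 of C50 was high, at 157 TPM against 101 to 114 TPM, with a ratio of 0.717.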

How the results depend on the processing

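Over 76 results and 1824 alternatives, 1607 stayed the same, 109 lost a call, 58 gained one, 43 moved and 7 reversed. For a gene's change, the same means the same direction and side of the threshold, and for an F-test the same side. For a count it means a value near that of the main fit. For a WT difference of a member it means a shift smaller than the SD between libraries. Counts and WT differences beyond these limits are those that moved. The cause of the changes was not tested. Baiap2l2 and Eps8l1 passed between fractions in each of the 29 alternatives other than the split by genes above 0. The 3 members called between fractions became 5 with a mean of at least 5 TPM, 6 after median-ratio scaling, 6 after quantile normalization and 0 (3 at an unadjusted p under 0.05, limma) in the libraries with fewer genes above 0, where 40.5%, 35.7%, 38.7% and 1.96% of all genes were called, against 35.3%. Members called for clone differences (1) became 2 after either scaling (29.3% and 33.4% of all genes) and 1 to 3 with a replicate left out (20.9% to 44.8%), and those called for the interaction (0) became 0 to 4 (0.319% to 38.6%). The 6 calls within clones became 11 after median-ratio scaling, 12 after quantile normalization and 4 to 13 with a replicate left out, beside 15.0%, 16.3% and 9.91% to 29.0% of the contrasts of all genes, against 14.5%. Genes called between fractions (4626) were 2406 with clone means and 250 in the libraries with fewer genes above 0. Genes called with dDAVP (1198) were 442 without a filter, 757 after median-ratio scaling, 691 without trend and 314 to 2038 with a replicate left out, the highest without dDAVP replicate 2. List genes called between fractions (26) were 16 without a filter (79 tested), 10 with clone means, 1 in the libraries with fewer genes above 0 and 14 without clone C1. In these fits 9.24%, 18.3%, 1.96% and 28.7% of all genes were called, against 35.3%. List genes called with dDAVP (5) were 0 without a filter or without trend (limma, 24 and 19 at an unadjusted p under 0.05), 8 with a mean of at least 5 TPM or a pseudocount of 0.1, 2 after quantile normalization and 0 to 7 with a replicate left out. The 2 after quantile normalization are not among the 5 of the main fit.

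With a replicate left out, Eps8l2 in C11 ranged from -0.0273 to 0.113 (below 0 in 2 fits, the other at -0.0167), Mtss1 from -0.237 to 0.629 in C11 and from -0.341 to 1.07 in C43, and Pla2g6 with dDAVP from -0.102 to 0.124 (also -0.0252 and -0.0118). None of the values below 0 passed.

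The replicate block, fitted although the numbers do not pair the samples, gave 4 members between fractions (Mtss1 added, limma adjusted p 0.0245), 4259 genes between fractions, 122 genes with dDAVP (80.3% higher), 22 list genes between fractions, 0 with dDAVP (14 at an unadjusted p under 0.05, limma), 5 calls within clones, 0 for the interaction and 1 for clone differences. Under the block 32.5% of all genes were called between fractions, 11.2% of contrasts within clones, 0.0839% of genes for the interaction and 31.7% for clone differences. TPM gives no depth, so the counting error of low members such as Eps8 and Mtss1 is unknown.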
